A study of Mus musculus with 16 samples.

Results

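The cell cycle genes described here were 10 regulators of the G1 phase: the cyclins Ccnd1, Ccnd2, Ccnd3 and Ccne1, the cyclin-dependent kinases (CDKs) Cdk2, Cdk4 and Cdk6, and the CIP/KIP inhibitors Cdkn1a, Cdkn1b and Cdkn1c. They were chosen by name, as the core of the switch that decides between another division and exit from the cycle, out of 45513 genes counted in every library. The choice was made with earlier results of these data known. RNA sequencing had been performed on 16 libraries from the colon of 8 mice, and each mouse gave 1 library of EpCAM+ tdTom+ cells and 1 of EpCAM+ tdTom- cells. All mice were homozygous for Atoh1(WT)CreERT2, an unmutated Atoh1 allele with the inducible recombinase CreERT2 placed downstream of its coding sequence, carried 1 Rosa26tdTom reporter allele (Rosa26tdTom/+), and were C57BL/6 animals of both sexes aged 8 to 16 weeks. The labels give tamoxifen at 1 mg a day for 3 days in both populations, so the groups were set apart by the tdTomato label alone. The recombinase follows the activity of Atoh1, and the tdTom+ sort therefore holds cells that expressed Atoh1 at labelling together with their progeny. The tdTom- sort holds all EpCAM+ epithelial cells without the label, dividing and mature, including any that express Atoh1 but were not labelled. The mice are called 1 to 8 here by ascending number in the labels, which fall into 3 runs of numbers: mice 1 to 3, mouse 4, and mice 5 to 8.

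D-type cyclins accumulate in response to growth signals and activate Cdk4 and Cdk6, which start to phosphorylate the retinoblastoma family of pocket proteins. Cyclin E with Cdk2 completes that phosphorylation, E2F factors are released, and genes for DNA replication are transcribed. The CIP/KIP proteins p21 (Cdkn1a), p27 (Cdkn1b) and p57 (Cdkn1c) bind these complexes and hold back Cdk2 above all, and in the intestinal crypt cells pass from a dividing progenitor zone to a non-dividing differentiated zone. ATOH1 is the transcription factor that commits crypt progenitors to the secretory lineages, in the colon mainly to goblet cells.

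The total count ran from 16482530 to 24218367 in the tdTom+ libraries and from 18318172 to 45791503 in the tdTom- libraries, where mouse 4 had the highest value and the other 7 mice did not exceed 20668605. Of the genes counted, 15841 had enough counts to be tested. The label itself was clear, since Atoh1 had a mean of 132 CPM (read counts scaled to a common library size) in tdTom+ libraries against 5.70 CPM without the label, and 4 of 4 secretory markers were higher in tdTom+ cells in all 8 mice. All 7 absorptive markers, all 6 enteroendocrine markers, 4 of the 5 tuft markers tested and 5 of the 6 stem cell markers tested were lower in tdTom+ cells. Summed immune markers were 6.22 to 12.9 CPM in tdTom+ and 10.6 to 35.1 CPM in tdTom- libraries, and of the 8 genes 3 could be tested, 2 of which were lower. Summed stromal and endothelial markers were 5.50 to 11.7 CPM and 7.81 to 20.7 CPM, with 2 of 7 testable and 1 lower. No marker was at 0 in every library, but Cd3g had no count in any tdTom+ library. Mitochondrial transcripts took 2.23% to 6.92% of tdTom+ counts and 3.74% to 9.97% of tdTom- counts, and the share was lower in tdTom+ cells of all 8 mice. The part that these differences in other cell types and in mitochondrial share have in the values below was not tested.

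All 10 G1 regulators were detected in all 16 libraries and all were tested. Cyclin D3 (Ccnd3) had the largest difference, with a mean level in tdTom+ cells 2.08 times that in tdTom- cells, and the inhibitor p21 (Cdkn1a) had the next largest, since its mean level dropped by 43.4% from tdTom- to tdTom+ cells. In the edgeR quasi-likelihood fit with the mouse as a term, 4 genes were higher in tdTom+ cells at an adjusted p under 0.01 (Ccnd2, Ccnd3, Cdk2 and Cdkn1b), 2 were lower (Cdkn1a and Cdkn1c), and Ccnd1, Ccne1, Cdk4 and Cdk6 did not pass. Thus 6 of 10 genes were called. Among all genes tested 28.4% were called higher, 28.9% lower and 57.2% in either direction, so the share of called genes among the 10 was close to that of the transcriptome. The size of the differences was also ordinary: the median absolute log2 fold change was 0.25 over the 10 genes and 0.33 over all genes tested. In bulk samples such as these, a lower share of cells that express a gene and less RNA per cell cannot be told apart.

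The plot of levels by library shows the 10 genes side by side. Its unit is CPM scaled by the trimmed mean of M-values (TMM), which serves to compare libraries for 1 gene and not genes with each other. Only Ccnd3 had populations whose libraries did not overlap in CPM, against 30.5% of all genes tested. Without the mouse term 4 of the 10 genes were called (Ccnd3, Cdk2, Cdkn1a and Cdkn1c), where 51.0% of all genes were.

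**Figure D1:**
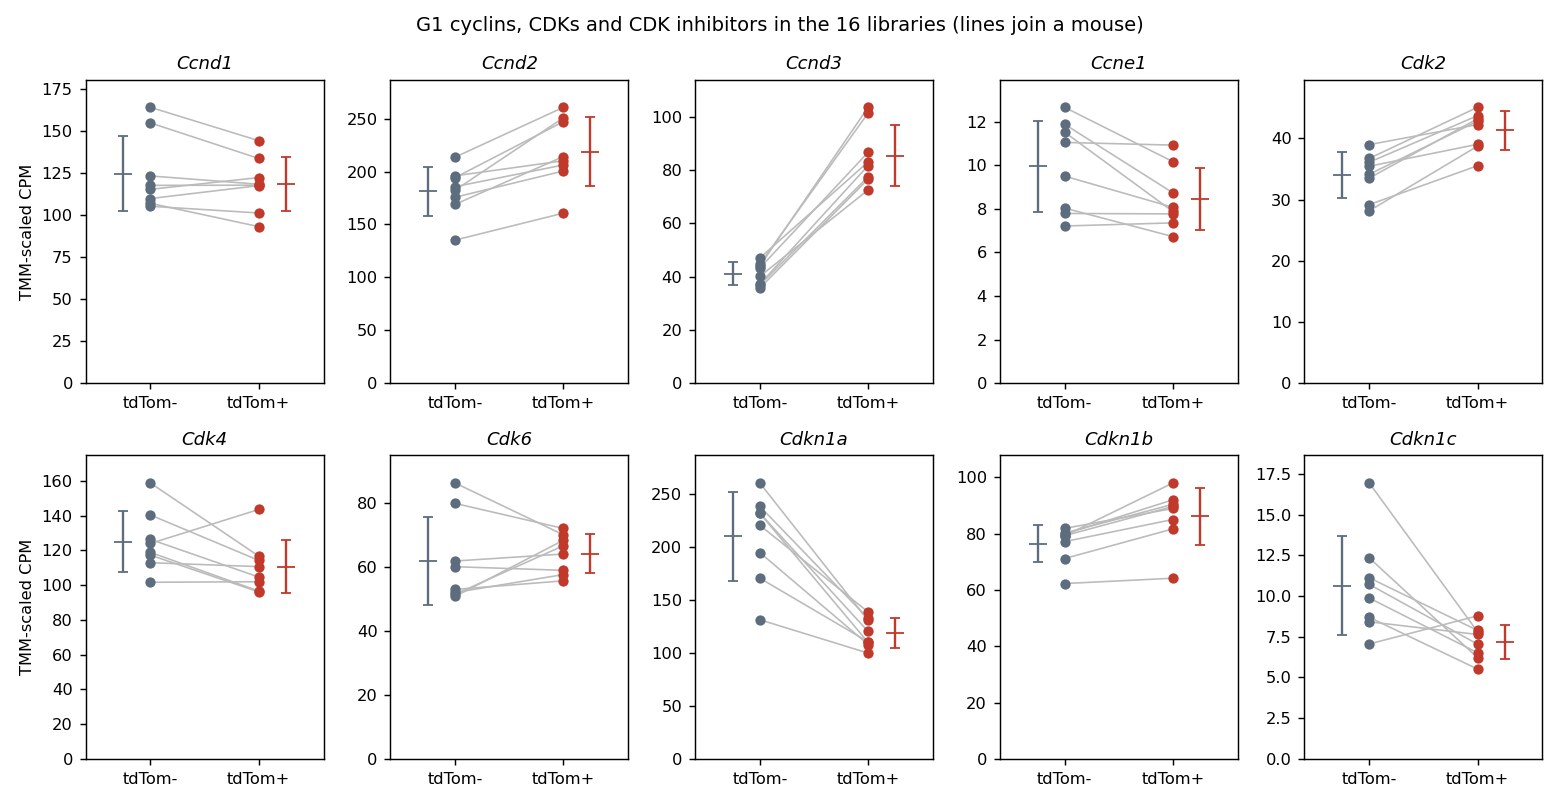
Levels of the 10 G1 regulators in TMM-scaled CPM on linear axes that start at 0, with 1 point per library, grey for tdTom- and red for tdTom+, and a line joining the 2 libraries of a mouse; the bars beside the points are the mean and SD of 8 libraries. Ccnd3 rises on every line from 35.7 to 47.0 CPM in tdTom- to 72.5 to 103 CPM in tdTom+ libraries, and Cdkn1a falls on every line. The lines of Ccnd1, Ccne1, Cdk4, Cdk6 and Cdkn1c go in both directions.

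For the called genes that had an entry in the RefSeq promoter table (GRCm38.p6), the bases just before the annotated start are shown, since these windows belong to genes that moved in opposite directions in the same cells. Of the 10 genes 7 matched an entry, and Ccnd1, Ccnd2 and Cdkn1c did not. Each line gives the longest stretch free of annotated exons within 250 bases before a start, on the strand of the gene and read 5′ to 3′, with capitals for matches of the motifs named after the lines. The stretches are chr17:47504801-47505050 (plus strand) for Ccnd3, chr10:128705052-128705179 (minus strand) for Cdk2, chr17:29090729-29090975 (plus strand) for Cdkn1a and chr6:134920151-134920400 (plus strand) for Cdkn1b.
Ccnd3: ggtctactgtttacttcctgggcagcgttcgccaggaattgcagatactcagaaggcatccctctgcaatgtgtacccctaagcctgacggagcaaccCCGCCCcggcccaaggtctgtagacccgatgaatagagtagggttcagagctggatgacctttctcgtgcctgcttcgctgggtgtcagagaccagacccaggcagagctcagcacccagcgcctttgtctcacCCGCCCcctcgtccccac
Cdk2: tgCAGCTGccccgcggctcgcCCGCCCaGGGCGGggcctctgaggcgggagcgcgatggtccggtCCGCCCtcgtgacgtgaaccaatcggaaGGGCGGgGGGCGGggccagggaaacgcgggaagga
Cdkn1a: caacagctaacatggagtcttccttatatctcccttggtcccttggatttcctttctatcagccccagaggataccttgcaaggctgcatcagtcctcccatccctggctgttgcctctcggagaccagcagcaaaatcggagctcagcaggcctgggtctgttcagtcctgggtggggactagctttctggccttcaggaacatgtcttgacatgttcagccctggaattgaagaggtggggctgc
Cdkn1b: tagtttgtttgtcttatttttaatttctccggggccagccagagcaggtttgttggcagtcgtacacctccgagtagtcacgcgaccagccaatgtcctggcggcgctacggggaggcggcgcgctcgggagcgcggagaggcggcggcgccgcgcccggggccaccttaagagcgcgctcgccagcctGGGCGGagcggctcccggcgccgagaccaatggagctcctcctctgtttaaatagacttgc

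The motifs were searched on both strands in all windows of 250 bases, of which the 7 genes had 9. They were 3 forms of the E2F site (TTTCCCGC, TTTGGCGC and TTTCGCGC), 2 forms of the E-box that bHLH factors such as ATOH1 bind (CAGCTG and CAGATG), and the GC box (GGGCGG). The GC box was present in 7 of the 9 windows, against 32.7% of 32817 windows of all genes. The Cdk2 window held 5 GC boxes and the only E-box of the set, CAGCTG, which starts 126 bases before the start and which 13.0% of all windows hold. The same window held the only E2F match, TTTCCCGC on the opposite strand at 140 bases before the start, outside the stretch printed, and 0.893% of all windows hold this form. The forms TTTGGCGC (0.417% of windows), TTTCGCGC (0.256%) and CAGATG (14.5%) were in none of the 9 windows. The Cdkn1a stretch shown holds none of the 6 motifs. Cdkn1a has another annotated start, whose window (chr17:29093519-29093768) lies wholly in annotated exons and is not printed. That window holds 2 GC boxes. Ccnd3 also has another start, whose window (chr17:47593217-47593466) holds 1 GC box and is not printed. A match is a match of letters, and binding was not measured.

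Among the D cyclins, which are the partners of Cdk4 and Cdk6, Ccnd3 changed most. Ccnd3 (ENSMUSG00000034165, 17:47505051-47599691, plus strand, GRCm38) had a lowest, median and highest level of 72.5, 82.3 and 103 CPM in tdTom+ libraries and of 35.7, 41.6 and 47.0 CPM in tdTom- libraries. Every tdTom+ library lay above every tdTom- library. The mean was 85.3 ± 11.4 CPM (SD, n = 8) against 41.1 ± 4.21 CPM (SD, n = 8), a log2 fold change of 1.05 (SE 0.05, edgeR adjusted p = 6.96e-12). The ratio was above 1 in 8 of 8 mice, from a log2 value of 0.82 in mouse 7 to 1.23 in mouse 1. It was the only gene of the 10 whose log2 fold change exceeded 1. Of its exonic bases 4.11% are covered by exons of Bysl on the opposite strand, and the counting was strand-specific.

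Ccnd2 (ENSMUSG00000000184, 6:127125779-127151048, minus strand) also rose in tdTom+ cells, by a smaller step. Its lowest, median and highest levels were 161, 212 and 261 CPM in tdTom+ and 135, 184 and 214 CPM in tdTom- libraries. The ranges overlapped, and 4 of the 8 tdTom+ libraries lay within the tdTom- range, but within each mouse the tdTom+ library was the higher one. The mean was 219 ± 32.8 CPM against 181 ± 23.2 CPM (SD, n = 8 each), with a log2 fold change of 0.27 (SE 0.05, edgeR adjusted p = 1.3e-04). Without the mouse term the same log2 fold change did not pass (edgeR adjusted p = 0.0195).

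Ccnd1 (ENSMUSG00000070348, 7:144929931-144939869, minus strand), the D cyclin known as a target of growth and Wnt signalling, did not pass. It ranged from 93.1 to 144 CPM in tdTom+ and from 105 to 164 CPM in tdTom- libraries, with a log2 fold change of -0.07 (SE 0.05, edgeR adjusted p = 0.239). It was higher in tdTom+ cells of 3 mice and lower in 5. Exons of LTO1 on the opposite strand cover 21.3% of its exonic bases.

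Ratios between the D cyclins within a library are free of library scaling. The log2 ratio of Ccnd3 to Ccnd1 per kilobase of exon was -1.67 ± 0.09 in tdTom+ and -2.78 ± 0.19 in tdTom- libraries (SD, n = 8 each), a mean difference of 1.12 ± 0.22 (SD, n = 8 mice). That of Ccnd2 to Ccnd1 was higher in tdTom+ cells by 0.33 ± 0.20 (SD, n = 8 mice). Both ratios were higher in tdTom+ cells of all 8 mice. In TPM, which divides counts by exon length and scales each library to the same sum, the 3 genes summed to 163 ± 39.4 TPM in tdTom+ and 149.5 ± 35.7 TPM in tdTom- cells (SD, n = 8 each). Of that sum Ccnd3 made up 12.3% ± 1.20 against 6.83% ± 0.70, Ccnd1 made up 39.1% ± 2.81 against 46.9% ± 3.60, and Ccnd2 48.5% ± 3.82 against 46.2% ± 3.56. Ccnd3 was the least abundant D cyclin of both populations by mean TPM.

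Ccne1 (ENSMUSG00000002068, 7:38097984-38107534, minus strand), the cyclin E that activates Cdk2 at the G1/S boundary, was the scarcest of the 10 per length. It ranged from 6.72 to 10.9 CPM in tdTom+ and from 7.21 to 12.7 CPM in tdTom- libraries, on 120 to 651 counts a library. It was lower in tdTom+ cells of 7 of 8 mice, with a log2 fold change of -0.23 (SE 0.08), and missed the threshold (edgeR adjusted p = 0.0208).

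Of the kinases only Cdk2 passed, and it was higher in tdTom+ cells. Cdk2 (ENSMUSG00000025358, 10:128697939-128705051, minus strand), the partner of cyclins E and A, had a lowest, median and highest level of 35.5, 42.5 and 45.1 CPM in tdTom+ and 28.2, 34.8 and 39.0 CPM in tdTom- libraries. In CPM 2 tdTom+ libraries lay within the tdTom- range and 6 above it, and all 8 mice had the higher value in tdTom+ cells. The mean was 41.3 ± 3.21 CPM against 34.0 ± 3.71 CPM (SD, n = 8 each) and the log2 fold change 0.28 (SE 0.05, edgeR adjusted p = 8.03e-05). Its promoter stretch is the one with 5 GC boxes and the E-box.

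Cdk4 (ENSMUSG00000006728, 10:127063534-127067920, plus strand), a partner of the D cyclins, ranged from 96.1 to 143 CPM in tdTom+ and from 102 to 159 CPM in tdTom- libraries. Its log2 fold change was -0.18 (SE 0.06, edgeR adjusted p = 0.0205), and it was lower in tdTom+ cells of 6 of 8 mice. The tdTom+ library of mouse 3, at 143 CPM, stood apart from the other 7 at 96.1 to 117 CPM, and without mouse 3 the log2 fold change was -0.23 and passed (edgeR adjusted p = 0.00222). Exons of Tspan31 on the opposite strand cover 18.6% of its exonic bases.

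Cdk6 (ENSMUSG00000040274, 5:3341485-3531008, plus strand), the other such partner, ranged from 55.6 to 71.9 CPM in tdTom+ and from 50.7 to 86.1 CPM in tdTom- libraries, so that all tdTom+ libraries lay within the tdTom- range. Its log2 fold change was 0.07 (SE 0.07, edgeR adjusted p = 0.373), with 5 mice higher and 3 lower. The log2 ratio of Cdk2 to Cdk4 per kilobase was higher in tdTom+ cells of all 8 mice, by 0.46 ± 0.18 (SD, n = 8 mice). Per length Cdk2 made up 30.8% ± 3.85 of the summed TPM of the 3 kinases in tdTom+ and 24.7% ± 2.27 in tdTom- cells (SD, n = 8 each).

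The 3 CIP/KIP inhibitors moved in different directions: p21 and p57 transcripts fell in tdTom+ cells and p27 transcripts rose. Cdkn1a (ENSMUSG00000023067, 17:29090979-29100722, plus strand), which encodes p21, an inhibitor induced by p53 and during differentiation, had a lowest, median and highest level of 100.01, 116 and 139 CPM in tdTom+ and 132, 226 and 261 CPM in tdTom- libraries. The tdTom+ libraries lay below the tdTom- range except for 2, which exceeded only the tdTom- library of mouse 4. The mean was 119 ± 13.9 CPM against 210.3 ± 42.1 CPM (SD, n = 8 each), a log2 fold change of -0.80 (SE 0.07, edgeR adjusted p = 7.46e-09). The log2 ratio was negative in all 8 mice and ran from -1.08 in mouse 5 to -0.40 in mouse 4.

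Cdkn1b (ENSMUSG00000003031, 6:134920401-134925513, plus strand) encodes p27, the inhibitor typical of resting and differentiated cells, whose amount is known to be set largely by protein turnover. Its lowest, median and highest levels were 64.2, 89.3 and 98.0 CPM in tdTom+ and 62.3, 79.3 and 81.9 CPM in tdTom- libraries. The ranges overlapped through 2 tdTom+ libraries, and each mouse had the higher value in tdTom+ cells, from a log2 ratio of 0.04 in mouse 4 to 0.31 in mouse 2. The mean was 86.2 ± 10.1 CPM against 76.4 ± 6.54 CPM (SD, n = 8 each) and the log2 fold change 0.17 (SE 0.04, edgeR adjusted p = 0.00197). The call did not hold without the mouse term (log2 fold change 0.18, edgeR adjusted p = 0.0469) or with library size as the only scaling (0.12, adjusted p = 0.0423), and in TPM 6 of 8 mice were higher.

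Cdkn1c (ENSMUSG00000037664, 7:143458350-143461050, minus strand), an imprinted gene that encodes p57, was detected at 96 to 363 counts a library. Its lowest, median and highest levels were 5.51, 7.34 and 8.78 CPM in tdTom+ and 7.05, 10.3 and 16.9 CPM in tdTom- libraries. The groups overlapped, with 4 tdTom+ libraries inside the tdTom- range, and tdTom+ was the lower library in 7 of 8 mice, with mouse 4 the other way. The mean was 7.18 ± 1.06 CPM against 10.6 ± 3.05 CPM (SD, n = 8 each), with a log2 fold change of -0.52 (SE 0.13, edgeR adjusted p = 0.00156), and it ran from -0.64 without mouse 4 to -0.43 without mouse 2, past the threshold with any 1 mouse left out. The log2 ratios of the mice had an SD of 0.46, the largest among the 10 genes.

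As a family the inhibitors summed to 154 ± 15.0 TPM in tdTom+ and 247 ± 30.9 TPM in tdTom- cells (SD, n = 8 each). In TPM the libraries did not overlap (131 to 175 and 199 to 286 TPM), but in TMM-scaled CPM the sums did (173 to 237 and 201 to 357 CPM). Of the summed TPM, Cdkn1a made up 70.2% ± 1.55 in tdTom+ and 80.6% ± 2.16 in tdTom- cells, Cdkn1b 24.9% ± 1.81 and 14.6% ± 1.87, and Cdkn1c 4.94% ± 1.07 and 4.73% ± 0.98. The log2 ratio of Cdkn1b to Cdkn1a per kilobase was -1.50 ± 0.13 in tdTom+ and -2.47 ± 0.22 in tdTom- libraries (SD, n = 8 each). In words, p27 transcripts gained on p21 transcripts in all 8 mice, while p21 transcripts stayed the most abundant of the 3 in every library, which the plot of shares within the families shows. These sums and shares are descriptions, with no test.

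**Figure D2:**
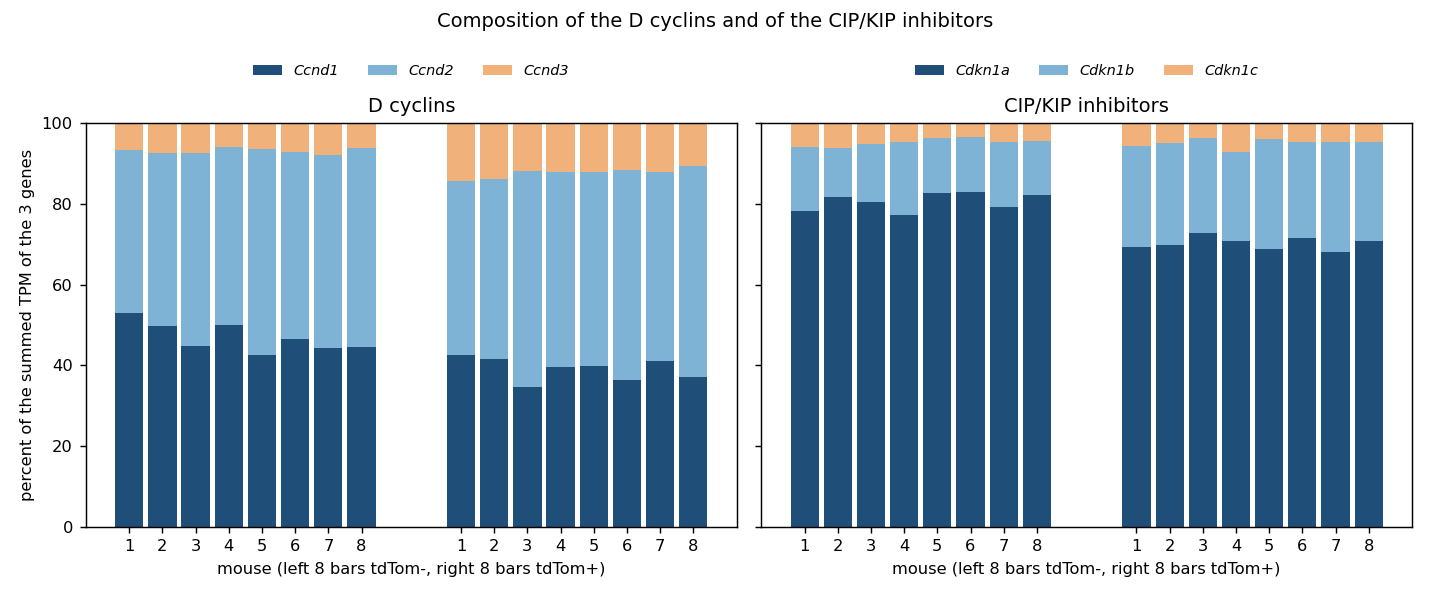
Share of each gene, in percent of the summed TPM of its family, for the 3 D cyclins (left panel) and the 3 CIP/KIP inhibitors (right panel), with 1 stacked bar per library, the 8 mice of tdTom- cells at the left and those of tdTom+ cells at the right of each panel. Ccnd3 takes 5.97% to 7.87% of the D cyclins in tdTom- and 10.6% to 14.4% in tdTom+ bars, and Cdkn1b takes 12.1% to 17.9% and 22.2% to 27.3% of the inhibitors.

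Per length, Cdkn1a was the most abundant of the 10 transcripts in both populations, at 108 ± 11.9 TPM in tdTom+ and 199.6 ± 29.9 TPM in tdTom- cells (SD, n = 8 each). In tdTom+ cells it was followed by Ccnd2 (79.3 TPM), Cdk4 (69.1), Ccnd1 (63.7), Cdkn1b (38.2), Cdk2 (34.7), Ccnd3 (19.97), Cdk6 (9.35), Cdkn1c (7.61) and Ccne1 (6.55), given as mean TPM. Only the step from Ccnd3 to Cdk6 separated neighbours without overlap of their ranges in that order. Within each of the 8 libraries, though, Ccnd1 lay above Cdkn1b, Cdk2 above Ccnd3 and Cdk6 above Cdkn1c. The other overlapping neighbours kept the order in 5 to 7 of 8 libraries. In tdTom- cells the order of mean TPM was Cdkn1a, Cdk4 (83.3), Ccnd1 (70.5), Ccnd2 (69.0), Cdkn1b (35.7), Cdk2 (30.2), Cdkn1c (11.5), Ccnd3 (10.1), Cdk6 (9.55) and Ccne1 (8.13). There the ranges of neighbours were apart below Cdkn1a, below Ccnd2 and below Cdk2, and all other neighbours overlapped. Of these overlapping neighbours, Cdk4 still lay above Ccnd1 in all 8 libraries, and the others kept the order in 4 to 6. The orders differed in Ccnd2, which stood at place 4 in tdTom- and place 2 in tdTom+ cells and which overlapped the genes it passed, and in Cdkn1c, which stood at place 7 and place 9. Cdkn1c and Ccnd3 overlapped in tdTom- cells (9.10 to 15.8 and 7.32 to 13.3 TPM) and were apart in tdTom+ cells (5.58 to 11.2 and 14.3 to 28.3 TPM).

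In TMM-scaled CPM the mice agreed in direction for 5 of the 10 genes, namely Ccnd2, Ccnd3, Cdk2, Cdkn1a and Cdkn1b, as the plot of ratios by mouse shows. In TPM they did so for Ccnd3, Cdkn1a and Ccne1 (lower in 8 of 8), while Ccnd2 and Cdk2 were higher in 7 of 8 mice and Cdkn1b in 6. The share of all genes tested with the same direction in every mouse was not computed. These counts therefore describe the 10 genes only and do not set them apart from other genes. Mouse 4, whose tdTom- library was the deepest, had the log2 ratios nearest to 0 for Cdkn1a and Cdkn1b and the opposite sign for Cdkn1c. For Cdk4 its log2 ratio was the farthest from 0 (-0.44). Leaving mouse 4 out kept the same numbers of called genes, 4 higher and 2 lower.

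**Figure D3:**
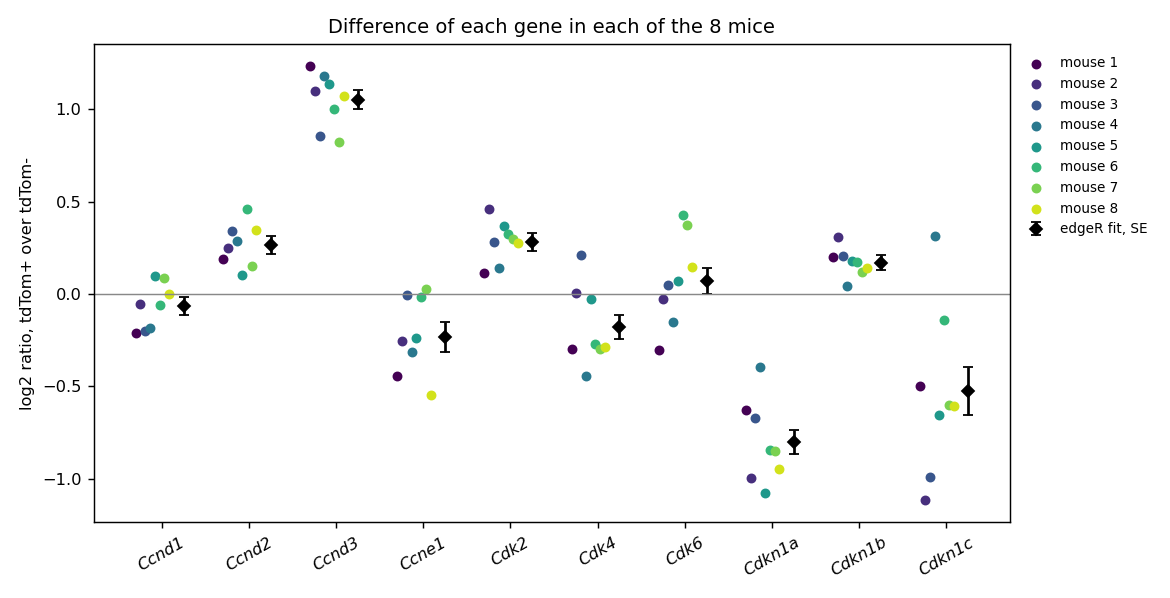
Log2 ratio of TMM-scaled CPM, tdTom+ over tdTom-, for each of the 10 genes, with 1 coloured point per mouse (mice 1 to 8 from left to right) and a black diamond for the log2 fold change of the edgeR fit with its SE. All 8 points lie above 0 for Ccnd2, Ccnd3, Cdk2 and Cdkn1b and below 0 for Cdkn1a, while those of Ccnd1, Ccne1, Cdk4, Cdk6 and Cdkn1c fall on both sides of 0.

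Within the runs of mouse numbers, Ccnd3 had a log2 fold change of 1.07 in mice 1 to 3 and 1.01 in mice 5 to 8, and Cdkn1a had -0.76 and -0.93. Both passed in each run. Ccnd2 had 0.26 and 0.27, Cdk2 0.29 and 0.32, and Cdkn1b 0.24 and 0.15, so that the direction was the same in both runs. With 3 mice Ccnd2, Cdk2 and Cdkn1b did not pass (edgeR adjusted p = 0.0261, 0.0264 and 0.0318), and with the 4 mice 5 to 8 Cdkn1b did not (0.0163). Cdkn1c had -0.87 and -0.50 and passed in both.

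Of the genes without a call, Ccne1 was at -0.24 and -0.20 in the 2 runs. Cdk6 was at -0.091 in mice 1 to 3 and at 0.26 in mice 5 to 8, where it passed (edgeR adjusted p = 0.0033). Ccnd1 was at -0.15 and 0.032, and Cdk4 at -0.024 and -0.22. The difference between the runs was tested as an interaction in edgeR on 14 libraries, and 0 of 15851 genes (0%) passed at an adjusted p under 0.01. Of these genes 1795 were at an unadjusted p under 0.05, a larger fraction than 0.05, and the smallest edgeR adjusted p was 0.0616. The interaction of Cdkn1c was 0.39 (SE 0.20, edgeR adjusted p = 0.471), the largest of the 10 in size. That of Cdk6 was 0.37 (SE 0.11, edgeR adjusted p = 0.275) and that of Ccnd1 0.21 (SE 0.09, edgeR adjusted p = 0.401). Cdk6 and Ccnd1 were the only 2 of the 10 genes at an unadjusted p under 0.05.

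Genes that act beside and after these regulators were taken from 10 lists, of which 85 of 87 genes could be tested, and 19 (22.4%) were called higher and 46 (54.1%) lower in tdTom+ cells, against 28.4% and 28.9% of all genes tested. Without the mouse term these counts were 19 and 38. The lists were chosen with earlier results of these data known, so these shares are a description only. The INK4 inhibitors, which block Cdk4 and Cdk6, were lower or not called: of 3 tested, 2 were lower, and Cdkn2b (p15) fell by 2.47 on the log2 scale, from 56.5 to 10.2 CPM (SE 0.07, edgeR adjusted p = 5.15e-15). Cdkn2d was at 0.13 without a call, and Cdkn2a had too few counts to be tested. The difference of Cdkn2b was thus larger than that of any of the 10 genes, and in the same direction as Cdkn1a and Cdkn1c.

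Downstream of the kinases, 2 of 3 pocket proteins were lower in tdTom+ cells, with Rbl1 (p107) at a log2 fold change of -0.38 and Rbl2 (p130), which did not pass, at -0.12. Of 10 E2F and DP factors 8 were lower and 2 not called (median log2 fold change -0.34), from -0.70 for E2f3 to 0.06 for E2f6, which did not pass. Of 12 E2F targets of the G1/S step 9 were lower and 3 not called (median -0.36), from the licensing factor Cdt1 at -0.57 to cyclin E2 (Ccne2) at 0.12, which did not pass. Of 10 cyclins and mitotic genes of S to M phase 9 were lower and 1 not called (median -0.42), from Plk1 at -0.81 to Cdk1 at -0.13, which did not pass. Beside these, 28.9% of all genes tested were lower and their median was 0.00. The summed level of the S to M list overlapped between the populations when the mice were not paired. It was 471 to 844 CPM in tdTom+ and 597 to 1191 CPM in tdTom- libraries, and every tdTom+ library held transcripts of this list. Within mice, Ccna2, Ccnb1, Ccnb2, Top2a, Plk1, Aurka, Aurkb and Bub1 were lower in tdTom+ cells of all 8. Mki67 was lower in 7 mice and Cdk1 in 6.

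**Figure D4:**
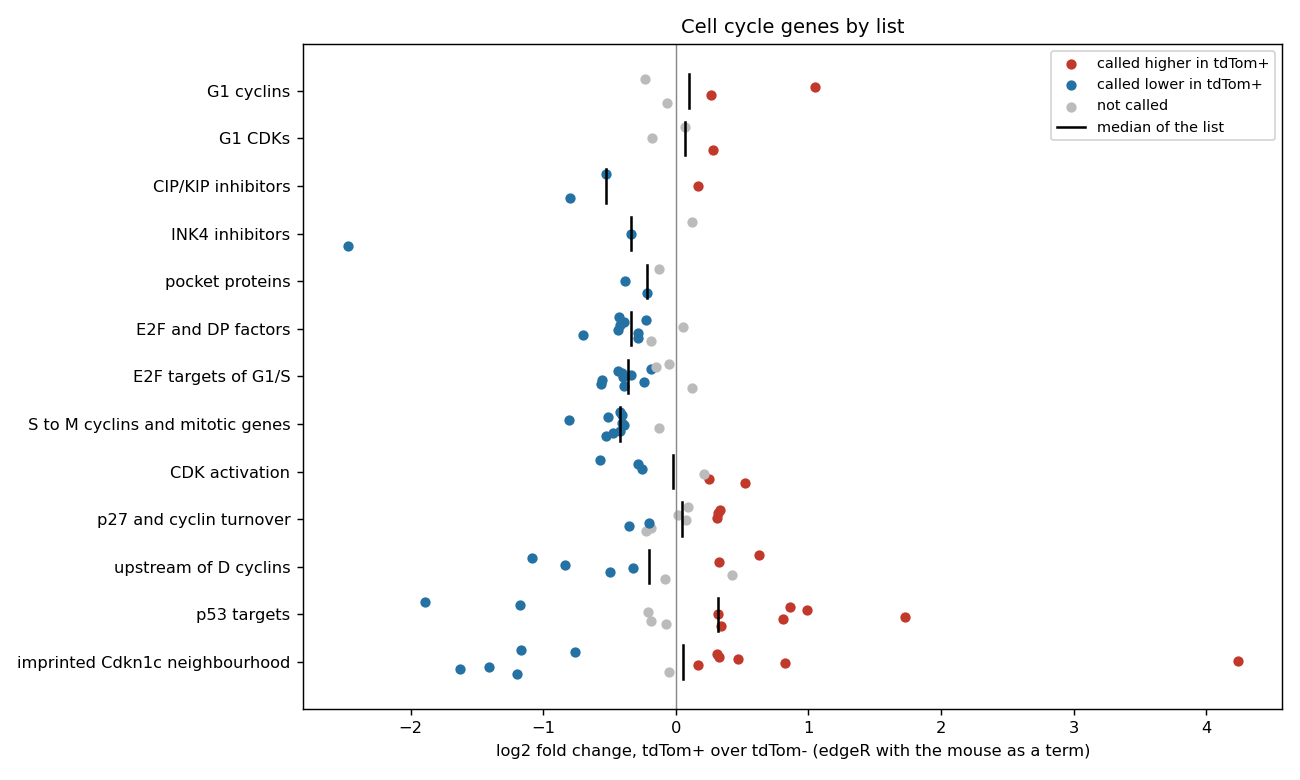
Log2 fold change, tdTom+ over tdTom-, from the edgeR fit with the mouse as a term, for the 10 G1 regulators (upper 3 rows) and the tested genes of 10 further lists, with 1 point per gene, red where called higher, blue where called lower and grey where not called at an adjusted p of 0.01; the black bar is the median of the list. The E2F and DP factors, E2F targets and S to M genes lie almost all below 0, with medians of -0.34, -0.36 and -0.42, whereas the G1 cyclins and CDKs lie on both sides of 0.

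Lists on the control of the kinases and of the cyclins held genes called in both directions, as did all genes tested (28.4% higher and 28.9% lower). Of 6 genes of CDK activation 2 were higher and 3 lower, with Cdk7, the catalytic subunit of the CDK-activating kinase, at 0.52 and the phosphatase Cdc25c at -0.57. Without mouse 8 only 1 of these was higher. Of 10 genes of p27 and cyclin turnover 3 were higher and 2 lower, from Cks2 at -0.35 to the F-box gene Fbxo4 at 0.33. Of 8 genes that act upstream of the D cyclins 2 were higher and 4 lower, with Sox9, a factor of crypt progenitors, at 0.63 and Hes1, the Notch target that represses Atoh1, at -1.09.

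Cdkn1a belongs to the p53 targets, which were listed here without it. These targets went in both directions, but more were called higher than lower, whereas all genes tested were split almost evenly (28.4% higher and 28.9% lower). Of 11 genes 6 were higher and 2 lower in tdTom+ cells (median 0.32), from Pmaip1, which encodes the pro-apoptotic NOXA, at -1.89 to Trp53inp1 at 1.73. The fall of Cdkn1a was thus not shared by most of the list. The imprinted neighbourhood of Cdkn1c on chromosome 7 was likewise divided, with 6 of 12 tested genes higher and 5 lower, from Slc22a18 at -1.63 to the decoy receptor gene Tnfrsf23 at 4.24, and H19 had too few counts to be tested.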

How the data were processed

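RNA sequencing of 16 libraries (EpCAM+ tdTom+ and EpCAM+ tdTom- cells of 8 mice) was re-analysed. The authors used a stranded mRNA kit, aligned with TopHat2 2.1.1 to GRCm38 and deposited raw counts per gene from featureCounts (v1.5.0-p1 in the file headers, Subread 1.5.2 in the submitters' processing notes), on exons, primary alignments and the reverse strand. The tamoxifen schedule is that of the labels, which the study's methods also give for the secretory signature, although their RNA sequencing section names a single dose. Symbols came from GENCODE M21 for 44585 of 45513 genes, and all 146 listed symbols matched.

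The quasi-likelihood test of edgeR 4.0.16 was run under R 4.3.3, after filterByExpr and TMM scaling, with mouse and population as terms and a Benjamini-Hochberg adjusted p under 0.01 over all 15841 genes tested. Mouse numbers in the titles pair the libraries, and deviations from the group means correlated within each mouse (lowest 0.22, highest between mice 0.17). No 2 libraries of a group agreed within sampling noise (chi-square per degree of freedom at least 11.7). On simulated data the fit recovered 98 of 100 genes changed by 1 on the log2 scale with 1 false call among 15734 genes. There 200 genes were changed, by 1 or 2, so smaller changes and a larger share of changed genes were not covered. With a bias by GC content added to the simulated tdTom+ libraries, the same fit gave 6832 false calls among 15694 genes. A fit corrected for GC content and length gave 4 among 15609. A floor of 3 counts corresponds to 0.0655 to 0.182 CPM, for counting error only.

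The genes named are the 10 regulators and the extremes of each list, and these members and lists were chosen with earlier results of these data known. The alternatives were no mouse term, DESeq2 1.42.0, limma-voom (limma 3.58.1), RLE, upper-quartile or no normalization factors, no filter, a minimum of 10 counts throughout, omission of each mouse in turn, each run of mouse numbers alone, thinning, removal of the 20 most abundant genes, an adjusted p of 0.05 and, chosen after seeing the data, a correction for GC content and length. Reads shared with other genes were estimated by 50-base words, at most 2.14% of any of the 10 genes.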

Additional observations from a re-analysis of the deposited data

Results flagged for a closer look

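In 62 groups of 8 libraries (the 10 regulators, the list genes named here and the total count, in each population), 2 held a library far from the other 7 by Dixon's criterion, where chance flags about 1 group in 20, or 3.1 of 62. The tdTom+ library of mouse 3 had 143.46 CPM of Cdk4 against 96.1 to 117 CPM in the other mice, and the call for Cdk4 depended on this mouse. The total count of the tdTom- library of mouse 4 was 45791503 against 18318172 to 20668605 in the others, and the numbers of called regulators did not change without this mouse.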

How the results depend on the processing

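The 14 main results (genes and regulators called in each direction, and the 10 log2 fold changes) were recomputed in 22 other settings, and 287 of 308 values held, which means the same sign and call for a gene and a change of at most 1.5 times for a count. Without the mouse term (the replicate block) 2 regulators were called higher, since Ccnd2 (0.27) and Cdkn1b (0.18) no longer passed, and no other call among the 10 changed. There 4032 of the 15841 genes tested were higher, against 4494 as reported. With no normalization factors 4 were lower, with Ccne1 (-0.28) and Cdk4 (-0.23) added, and Cdkn1b (0.12) was lost. Of the 15841 genes tested 5037 were then lower, against 4574 as reported. At an adjusted p of 0.05 also 4 were lower (Ccne1 -0.23, Cdk4 -0.18), as were 5351 of all genes tested. With no filter Cdk4 (-0.17) passed. In mice 1 to 3 alone 1 was higher, Ccnd2 (0.26), Cdk2 (0.29) and Cdkn1b (0.24) did not pass, and Cdk6 was at -0.091. Fewer mice were tested there, and 3315 of 16000 genes were higher, against 4494 of 15841 as reported. In mice 5 to 8 alone Ccnd1 was at 0.032, Cdk4 (-0.22) and Cdk6 (0.26) passed and Cdkn1b (0.15) did not. Leaving out 1 mouse gave 4255 to 4692 genes higher and 4241 to 4388 lower, 4 to 4 regulators higher and 2 to 3 lower, and Cdk4 at -0.23 to -0.12, past the threshold only without mouse 3. Ccnd3, Cdkn1a and Cdkn1c kept their calls in all 22 settings, and the correction for GC content and length changed no call of the 10 (Ccnd3 1.14, Cdkn1a -0.74, Cdkn1b 0.14, Cdkn1c -0.43). Of 880 values for lists and named list genes 862 held, and those reversed, in mice 1 to 3, were E2f6 (-0.063) and Cdk1 (0.11). The cause of these changes was not tested. Ccne1 and Cdkn1c had the lowest counts of the 10 genes, at as few as 120 and 96 a library.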
